A study of Mus musculus with 3 samples.

Results

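The genes described here are 28 listed genes that encode the machinery of synaptic vesicle release, complexins left out, among 32285 features measured in mouse retinal horizontal cells. Horizontal cells are the interneurons of the outer retina that receive input from photoreceptors and feed inhibition back to them. The members were taken by name: 4 synaptotagmin genes, the SNARE genes Snap25, Stx1a, Stx3, Vamp1 and Vamp2, the vesicle protein genes Syp, Syn1, Syn2, Syn3, Sv2a, Sv2b and Sv2c, the active zone genes Rims1, Rims2, Bsn and Pclo, the 3 Munc13 genes Unc13a, Unc13b and Unc13c, the Rab3 genes Rab3a and Rab3c with the effector gene Rph3a, and Napb and Nsf. Single-cell RNA was counted in 3 libraries, 1 each from postnatal days 6, 8 and 11 (P6, P8 and P11). Every library came from retinas of mice carrying Cx57icre and Ai14, in which a Cre recombinase driven by the horizontal cell connexin gene Cx57 switches on a red fluorescent reporter, and labelled cells were sorted. The number of animals behind each library is not given in the sources used here. With 1 library per age, no difference between ages could be tested, and age and library cannot be told apart. Every interval below covers counting error only.

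Transmitter leaves a neuron when a vesicle SNARE protein (VAMP) and the plasma membrane SNARE proteins (syntaxin and SNAP-25) zip together and pull the vesicle onto the membrane. Synaptotagmins sense the calcium that triggers this step, Munc13 and RIM proteins prepare vesicles for it at the active zone, Rab3 proteins bring vesicles there, and NSF with its SNAP adaptors takes spent SNARE bundles apart. Photoreceptors and bipolar cells release from ribbon synapses, which are known to use syntaxin 3, whereas most conventional synapses use syntaxin 1.

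Cells were kept with at least 1000 detected genes, at most 10% mitochondrial UMIs and a UMI of at least 2 of the 3 horizontal cell factors Lhx1, Onecut1 and Onecut2. A UMI (unique molecular identifier) marks 1 captured RNA molecule. This left 7145 of 9896 barcodes at P6, 3153 of 4635 at P8 and 4757 of 5517 at P11, with median UMIs per cell of 12161, 20671 and 22106. The horizontal cell gene Calb1, not used in the selection, stood at 701.8, 1714 and 2952 UMIs per 1000000 (CPM, the gene's share of all UMIs summed over the horizontal cells of a library). Summed markers of 3 other retinal classes were low: 8 rod genes reached 10.51, 8.973 and 7.076 CPM, 8 bipolar genes 20.47, 5.838 and 5.176 CPM, and 4 Müller glia genes 6.063, 4.095 and 7.929 CPM. Those of amacrine cells (7 genes) were at 522.7, 511.5 and 499.4 CPM, nearly all from Pax6 and Slc32a1, and those of ganglion cells (6 genes) at 1298, 1382 and 832.9 CPM, nearly all from Nefl. Of the other amacrine genes, Tfap2a was at 11.15, 10.06 and 14.7 CPM and Gad2 at 6.415, 1.807 and 0.7852 CPM. Slc6a9, Tfap2c and Chat stayed under 1 CPM. Of the other ganglion cell genes, Slc17a6 was at 46.21, 22.62 and 12.55 CPM. Rbpms was at 1.118, 0.5438 and 2.249 CPM and Thy1 at 1.166, 0.3519 and 2.026 CPM. Pou4f1 and Pou4f2 stayed under 1 CPM. Whether horizontal cells made the Pax6, Slc32a1 and Nefl RNA was not tested, nor was the part of these other cells in the results. Between 8 and 15 barcodes were shared by any pair of libraries, at most 0.2805% of the smaller one.

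The machinery as a whole made up nearly the same part of the horizontal cell transcriptome at P6 and P11 and a smaller part at P8. Summed over the 28 genes, the level was 9085 CPM in the P6 library, 7514.7 in the P8 library and 9281.4 in the P11 library, and the highest sum was 1.235-fold the lowest. Snap25, the membrane SNARE that supplies a pair of the helices of the fusion bundle, alone gave 46.8%, 48.14% and 48.04% of the sum. Of 23 members that reached 20 CPM at either age compared, 21 lay within 1.5-fold between P6 and P11, where 19.7% of all 7161 genes at that level lay farther apart. Vamp1, Sv2b, Sv2c, Unc13b and Unc13c stayed under this minimum at every age. Stx3, at 24 CPM at P6, was the member just above the minimum, and Unc13b, at 17.75 CPM, the one just under it.

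**Figure D1:**
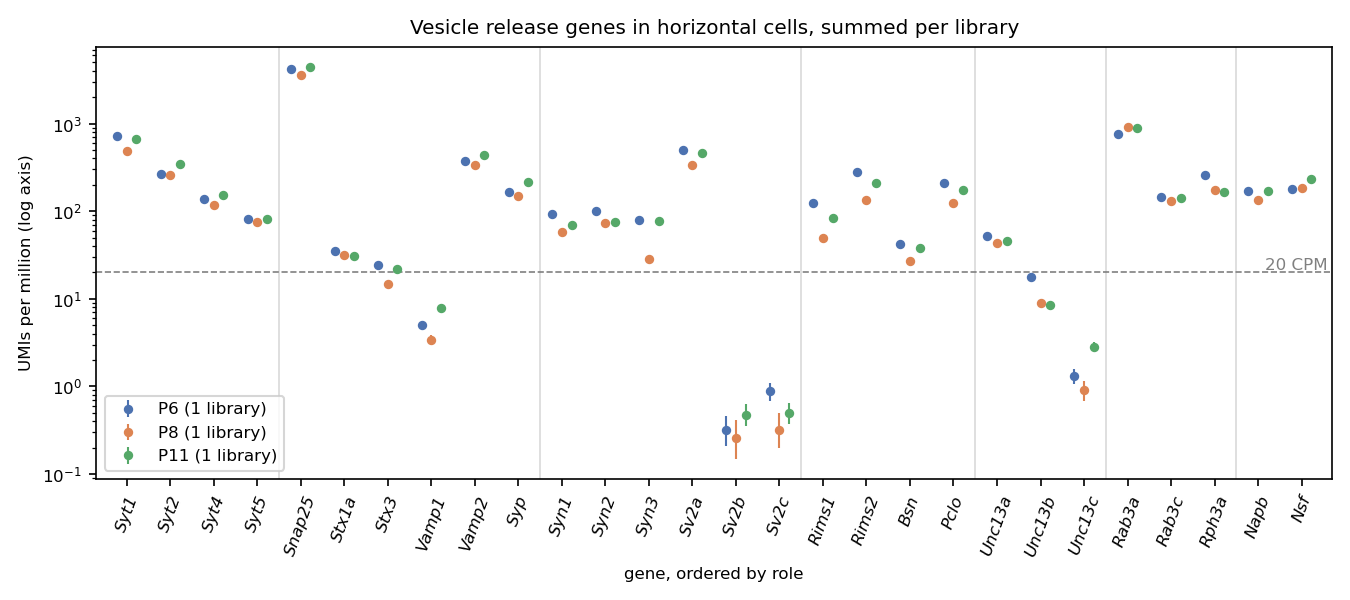
Level of each of the 28 genes in CPM (log axis) at P6, P8 and P11, ordered by role, with 95% Poisson intervals that cover counting error only (for most points they are smaller than the symbol) and the minimum of 20 CPM dashed. Snap25 stands above all other members at 3618 to 4458 CPM, and Sv2b and Sv2c lie under 1 CPM.

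The order of the levels was led by the same 3 genes at each age. Levels between genes are compared here as UMIs, since the 3' chemistry counts 1 end of each molecule and not its length. Snap25 ranked 13th, 20th and 14th among all genes at P6, P8 and P11. Rab3a, the small GTPase that tethers vesicles at the active zone, followed at 762.5, 912.6 and 894.8 CPM, and Syt1, the fast calcium sensor of release, at 723.3, 485.2 and 674.2 CPM. Sv2a came next at P6 and P11. At P8 its 335.1 CPM and the 340.5 CPM of Vamp2 had overlapping intervals. Further neighbours with overlapping intervals were Napb with Syp, Syt5 with Syn3 and Unc13c with Sv2c at P6. At P8 they were Rims2 with Napb, Pclo with Syt4, Syt5 with Syn2, Syn3 with Bsn and Sv2c with Sv2b. At P11 they were Syp with Rims2, Pclo with Napb and Napb with Rph3a, Rims1 with Syt5, Syn3 with Syn2, Unc13b with Vamp1 and Sv2c with Sv2b. All other neighbours were apart by more than their counting intervals, with no replicate to measure the spread between libraries.

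Among the calcium sensors, Syt1 was the leading gene and Syt2 gained share after P6. Syt2, which encodes the sensor closest to Syt1 in sequence and function, was at 265.9, 260.3 and 341.7 CPM, so P11 stood above both earlier libraries. Its share of the 4 synaptotagmin members was 22.01% at P6, 27.71% at P8 and 27.29% at P11, while that of Syt1 was 59.87%, 51.66% and 53.84%. Syt4, whose product lacks the usual calcium binding of its first C2 domain, was at 137.4, 118.4 and 154.9 CPM. Syt5, a further calcium-binding synaptotagmin, was at 81.51, 75.3 and 81.31 CPM and was the lowest of the 4 in each library. In a family widened to 14 synaptotagmins, Syt11, which binds no calcium, was the highest gene outside the list. It stood at 461.3, 478.6 and 627.4 CPM, so that at P8 it and Syt1 held 32.96% and 33.41% of the family's UMIs.

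The SNARE genes were uneven. Vamp2, the vesicle SNARE of most brain synapses, was at 378.8, 340.5 and 438 CPM, against 5.006, 3.391 and 7.92 CPM for its close relative Vamp1, and so made up 98.7%, 99.01% and 98.22% of the pair. Stx1a, the syntaxin of conventional synapses, was at 35.17, 31.51 and 30.91 CPM. Stx3, the syntaxin of ribbon synapses, was at 24, 14.59 and 22.11 CPM, or 40.55%, 31.64% and 41.7% of the pair. Thus P8 was the lowest library for Stx3, while the P8 and P11 levels of Stx1a had overlapping intervals. Within the SNAP-25 family, Snap25 held 92.8%, 90.1% and 92.87%, with Snap47 second at 301.6, 380.9 and 325.8 CPM.

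The SV2 proteins are transporter-like glycoproteins of the vesicle membrane. Their genes gave the most one-sided choice of paralogue. Sv2a was at 500.9, 335.1 and 466.5 CPM. Sv2b was counted in 26, 16 and 49 UMIs in all, or 0.3159, 0.2559 and 0.475 CPM. Sv2c was counted in 72, 20 and 51 UMIs, or 0.8748, 0.3199 and 0.4944 CPM. Sv2a therefore held 99.76% (95% Clopper-Pearson interval 99.71 to 99.81), 99.83% (99.76 to 99.88) and 99.79% (99.75 to 99.83) of SV2 UMIs. The 3 promoters are shown because the genes differ so far in level. Each is the 150 bases just before the gene's annotated start, from RefSeq on build GRCm38.p6, with CG pairs in capitals. Sv2a lies on the plus strand at chr3:96181001-96181150, Sv2b on the minus strand at chr7:75309263-75309412 and Sv2c on the minus strand at chr13:96132578-96132727.
Sv2a: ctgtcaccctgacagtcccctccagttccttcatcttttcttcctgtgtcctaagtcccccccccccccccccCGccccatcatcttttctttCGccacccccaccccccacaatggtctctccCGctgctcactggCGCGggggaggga
Sv2b: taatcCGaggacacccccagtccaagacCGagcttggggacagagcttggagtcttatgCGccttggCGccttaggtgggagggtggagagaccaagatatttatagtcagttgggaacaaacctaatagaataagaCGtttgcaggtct
Sv2c: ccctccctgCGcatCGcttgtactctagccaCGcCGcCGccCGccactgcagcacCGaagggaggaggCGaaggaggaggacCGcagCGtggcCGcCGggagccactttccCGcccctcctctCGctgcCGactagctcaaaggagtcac
Sv2a and Sv2b each held 5 CG pairs and Sv2c 15, against a median of 4 in 32851 promoter windows of the same length. The GC box GGGCGG, on either strand, was in the Sv2a and Sv2c windows and in 28.62% of all windows. The TATA box TATAAA, on either strand, was in the Sv2b window and in 7.574% of all. These are matches of letters and not sites of binding.

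Synapsins coat vesicles and hold them in a reserve pool. Here the leading gene was not constant. Syn2 led at P6 and P8 with 101.3 and 72.41 CPM, and at P11 its 74.34 CPM overlapped in interval with the 77.05 CPM of Syn3. Syn3 was at 79.85, 28.28 and 77.05 CPM, so its share went from 29.23% to 17.83% and 35.03%. Syn1 was at 92.01, 57.89 and 68.6 CPM. The P8 library was the lowest for Syn1 and Syn3, and for Syn2 the P8 and P11 levels overlapped. For Syn3, P8 was 0.354 times P6 (95% interval 0.336 to 0.373) and P11 was 2.73 times P8 (2.59 to 2.87). When UMIs were divided by exonic length Syn1 led at every age, with 57.15%, 58.2% and 55.24%. The genes of the tissue inhibitors of metalloproteinases that lie inside the synapsin genes on the opposite strand were low: Timp3, inside Syn3, was at 5.953, 1.104 and 1.503 CPM, Timp4, inside Syn2, at 2.381, 1.807 and 1.386, and Timp1, inside Syn1, at 0.1944, 0.112 and 0.1163. Araf, which overlaps Syn1 on the other strand, was at 108.4, 108.4 and 95.88 CPM. The sources used here do not say whether the counting used strand, so reads of Syn1 and Araf, Syt2 and Ppp1r12b, Unc13a and Colgalt1, and Rab3a and Mpv17l2 may not be fully separated. Syp, which encodes the abundant vesicle membrane protein synaptophysin, was at 165.5, 147.8 and 212.8 CPM. Its relative Syngr1, outside the list, exceeded it in the P8 library alone, at 172.2 CPM.

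**Figure D2:**
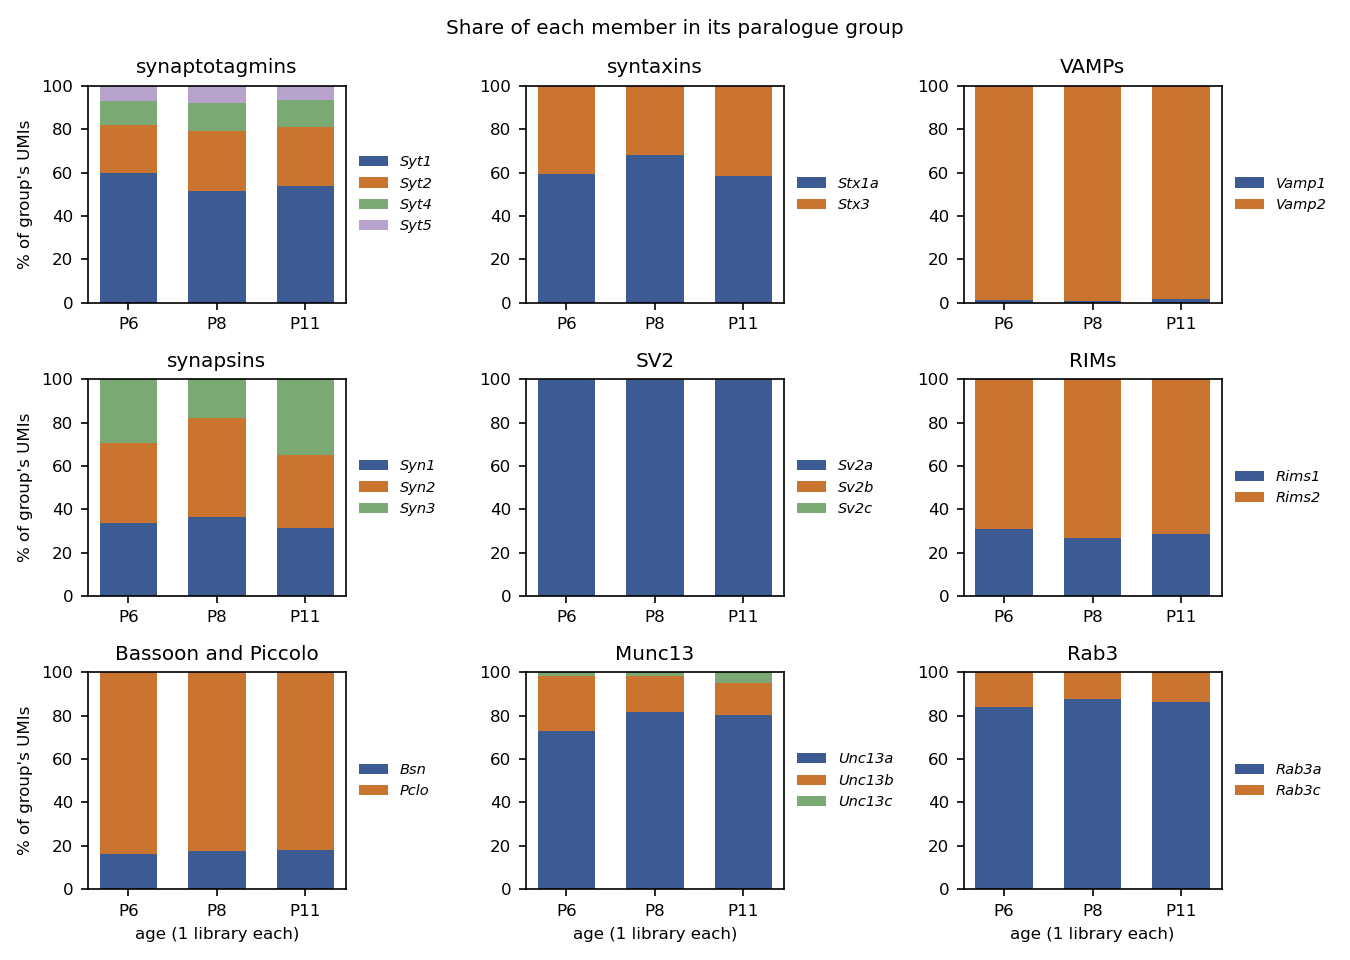
Share of each member in the UMIs of its paralogue group (percent, bars sum to 100) at P6, P8 and P11, 1 library each. The largest block is the same gene at all 3 ages in every group but the synapsins, where Syn2 leads at P6 and P8 and Syn3 at P11.

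After Syn3, the RIM genes of the active zone lay farthest apart between P6 and P8 among the 23 members with 20 CPM. Rims2, a RIM scaffold that gathers calcium channels and docked vesicles, was at 280.3, 135.9 and 209.2 CPM, and Rims1, its paralogue, at 125.2, 49.6 and 83.05 CPM. The P8 library was lowest and P6 highest for both. Rims1 at P8 was 0.396 times its P6 level (0.381 to 0.413) and Rims2 0.485 times (0.473 to 0.497). Pclo and Bsn encode Piccolo and Bassoon, giant scaffolds of the active zone. Pclo was at 212.2, 123 and 175 CPM, and Bsn at 41.66, 26.63 and 38.45 CPM. The ratio within each pair moved little, with Rims2 at 69.13%, 73.27% and 71.58% of the RIM pair and Pclo at 83.59%, 82.2% and 81.99% of its pair. Rims4, a short RIM without the zinc finger that binds Rab3, was at 58.57, 48.43 and 48.87 CPM.

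Munc13 proteins make docked vesicles ready to fuse. Unc13a, the main brain form, led at 51.45, 43.19 and 45.68 CPM. Unc13b was at 17.75, 8.877 and 8.443 CPM, so the P6 library was high and the later libraries had overlapping intervals. Its P11 level was 0.476 times that at P6 (0.437 to 0.518), and its share of the 3 genes went from 25.17% to 16.76% and 14.83%. Unc13c was counted in 108, 56 and 292 UMIs, or 1.312, 0.8957 and 2.831 CPM.

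Rab3a held 83.89%, 87.57% and 86.49% of the Rab3 pair, and Rab3c, a close relative, was at 146.5, 129.5 and 139.8 CPM. Rab3b, outside the list, was at 207.1, 123.6 and 56.76 CPM, so its share of the 4 Rab3 genes was 18.43%, 10.58% and 5.193%. Rab3a was the member with the largest ratio of P8 over P6, at 1.20 (1.18 to 1.21). Rph3a, which encodes the Rab3 effector rabphilin, was at 255.9, 175.4 and 167.2 CPM. P6 was the high library for Rph3a, and P11 stood at 0.653 times that level (0.640 to 0.667). Nsf, the ATPase that recycles SNARE proteins, was at 178.1, 184.1 and 235.9 CPM and highest at P11. Napb, the neuronal beta-SNAP adaptor, was at 168.3, 135.6 and 171.4 CPM, below the 229.8, 217.2 and 247.9 CPM of Napa, its ubiquitous relative.

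Between P6 and P8, 7 of 23 members were at least 1.5-fold lower and 0 higher: Stx3, Syn1, Syn3, Rims1, Rims2, Bsn and Pclo. Among all 7067 genes with 20 CPM, 29.6% lay that far apart, 21.7% lower and 7.97% higher. The members had a median log2 ratio of -0.31 and all genes one of -0.14. Scaling moved this comparison. TMM raised every log2 ratio by 0.28 and median-of-ratios by 0.32, after which Syn3, Rims1 and Rims2 alone were 1.5-fold lower and the medians of the members were -0.03 and 0.00. Under these scalings and all cell choices tried, 11 members kept a ratio under 1, namely Syt1, Stx3, Syn1, Syn2, Syn3, Sv2a, Rims1, Rims2, Bsn, Pclo and Rph3a, and Rab3a and Nsf kept one over 1. Syt2, Syt4, Syt5, Snap25, Stx1a, Vamp2, Syp, Unc13a, Rab3c and Napb did not keep a sign. Over all genes, the share of higher genes among those apart was 26.87% as CPM, 64.47% with TMM and 69.31% with median-of-ratios.

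Between P8 and P11, 4 of 23 members were at least 1.5-fold higher, namely Stx3, Syn3, Rims1 and Rims2, and 0 were lower. Of 6770 genes, 14.9% were apart, 10.4% higher and 4.55% lower. The medians were 0.36 for the members and 0.07 for all genes. Syn3 and Rims1 alone kept this call under TMM and median-of-ratios, which lowered each log2 ratio by 0.08 and 0.12. Over all genes, 69.57% of those apart were higher as CPM, 51.42% with TMM and 42.38% with median-of-ratios. The P8 library is shared by both steps, so the low P8 values of Stx3, Syn3, Rims1 and Rims2 enter each.

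Between P6 and P11, 2 of 23 members were at least 1.5-fold lower, Rims1 at 0.663 times (0.645 to 0.683) and Rph3a, and 0 were higher. Of 7161 genes 19.7% were apart, 12.3% lower and 7.35% higher. The members' median log2 ratio was -0.10, near the -0.08 of all genes. Both other scalings raised ratios by 0.20, which left neither gene past 1.5-fold and put Nsf, at 1.33-fold as CPM (1.30 to 1.35), past it. Over all genes, 37.33% of those apart were higher as CPM, 67.07% with TMM and 67.03% with median-of-ratios. The ratios of Syt2, Syt4, Snap25, Vamp2, Syp, Rab3a and Nsf stayed over 1, and those of Syn1, Syn2, Rims1, Rims2, Pclo and Rph3a under 1, in all settings tried. Of these, Syp was at 1.29 times (1.26 to 1.31) and Vamp2 at 1.16 times (1.14 to 1.17).

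The ratios of P8 over P6 moved with the length of the gene. Over all genes split into 5 groups by annotated span, the median log2 ratio was 0.27 in the shortest and -0.73 in the longest group, which starts at 91.89 kb. The members differed in the same direction, with Spearman's rho between span and log2 ratio of -0.57 over 23 genes of the same libraries. The 10 members in the longest group had a median of -0.61 and the other 13 one of -0.23. Rims1 spans 519.7 kb (chromosome 1, 22286251 to 22805994), Syn3 443.8 kb (chromosome 10, 86055125 to 86498896) and Rims2 486.1 kb (chromosome 15, 39198261 to 39684372). Malat1, a nuclear RNA that is a sign of nuclear content, was at 20337, 15319 and 21409 CPM, lowest at P8 as well. The part of gene length or nuclear content in these ratios was not tested. Against the median of the own length group, Syn3, Rims1 and Sv2a, which spans 14.37 kb, were at least 1.5-fold lower. Syt2 and Nsf, at 115.9 and 132.3 kb, were at least 1.5-fold higher than the median of theirs. The longest group has a median span of 164.4 kb, so its median is no match in length for Syn3 and Rims1.

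**Figure D3:**
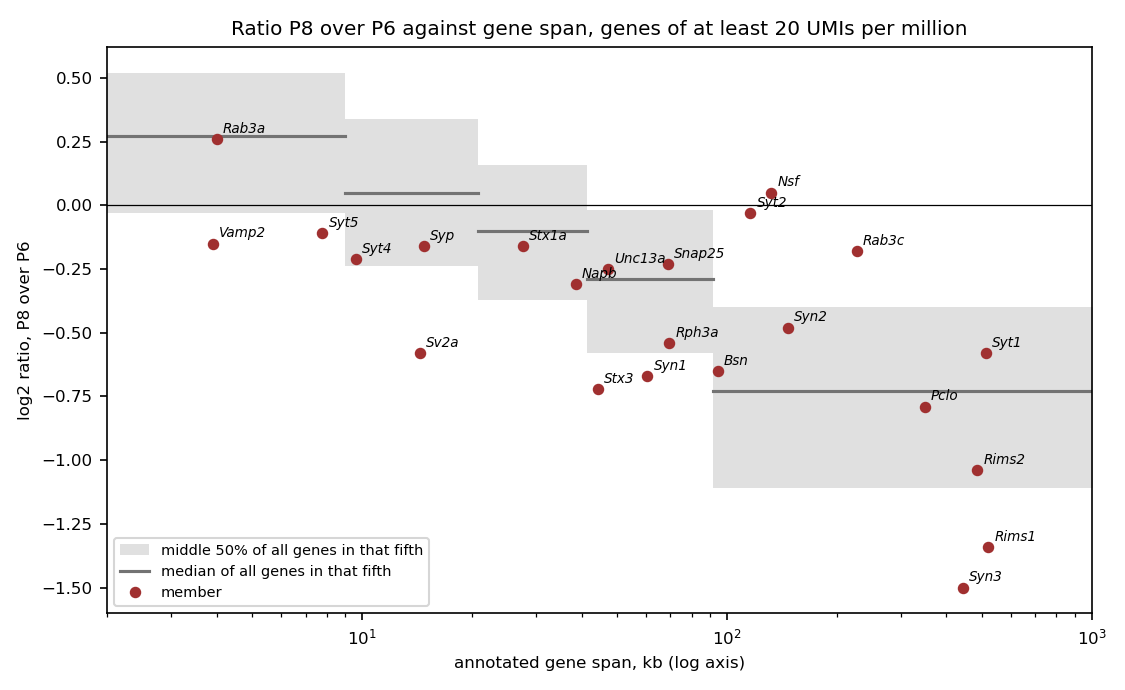
Log2 ratio of P8 over P6 (vertical) against annotated gene span in kb (log axis) for the 23 members with at least 20 CPM; lines and grey bands give the median and middle 50% of all genes in each of 5 groups by span. Of the 23 members 13 lie within the band of their group, 7 below it (Syn3 at -1.50, Rims1 at -1.34, Stx3, Syn1, Sv2a, Vamp2 and Syt5) and 3 above it (Nsf, Syt2 and Rab3c).

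In single cells the machinery was seen together. After each cell was thinned to 5000 UMIs, which left out 931, 149 and 170 shallower cells, a median cell held UMIs of 13 members at P6, 11 at P8 and 12 at P11. Snap25 was found in 100% of cells at every age, and Rab3a in 97.39%, 98% and 98.02%. Syt1 was found in 95.32%, 87.72% and 94.57%, and in 98.26%, 98.48% and 99.58% of unthinned cells. Syt2 went from 69.15% and 71.44% to 80.23% of cells. Rims1 was found in 41.57%, 20.21% and 31.07%, and Sv2b in 0.1609%, 0.1332% and 0.1744%.

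Free RNA can give UMIs in cells that lack a gene, so shares were set beside those of 41 Müller-type barcodes of the P6 library (median 2836 UMIs), which held at least 2 Müller glia markers and fewer than 2 of the 3 factors. At 1500 UMIs a cell, Snap25 was found in 17 of 40 Müller-type barcodes (42.5%, 27.04 to 59.11) and in 99.44% of horizontal cells. Syt2 was found in 2.5% against 32.89%, and Sv2a in 10% against 49.94%. The horizontal cell share lay above the upper bound of the Müller-type share for 14 of 28 members and within its interval for 8. The same count over all genes was not made, so these counts are not read as particular to the members. The horizontal cell share was at or below the Müller-type share for Stx3, Syn3, Sv2b, Rims1, Unc13b and Unc13c. For these 6 genes the Müller-type barcodes give no lower background. The comparison therefore cannot tell which part of their shares in horizontal cells is free RNA. As CPM in the P6 library, 5 of these 6 were higher in Müller-type barcodes by more than the counting interval: Rims1 at 523.8, Unc13c at 134.7, Unc13b at 127.2, Stx3 at 67.35 and Sv2b at 37.41, the last from 5 UMIs. Syn3, at 119.7, was not.

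**Figure D4:**
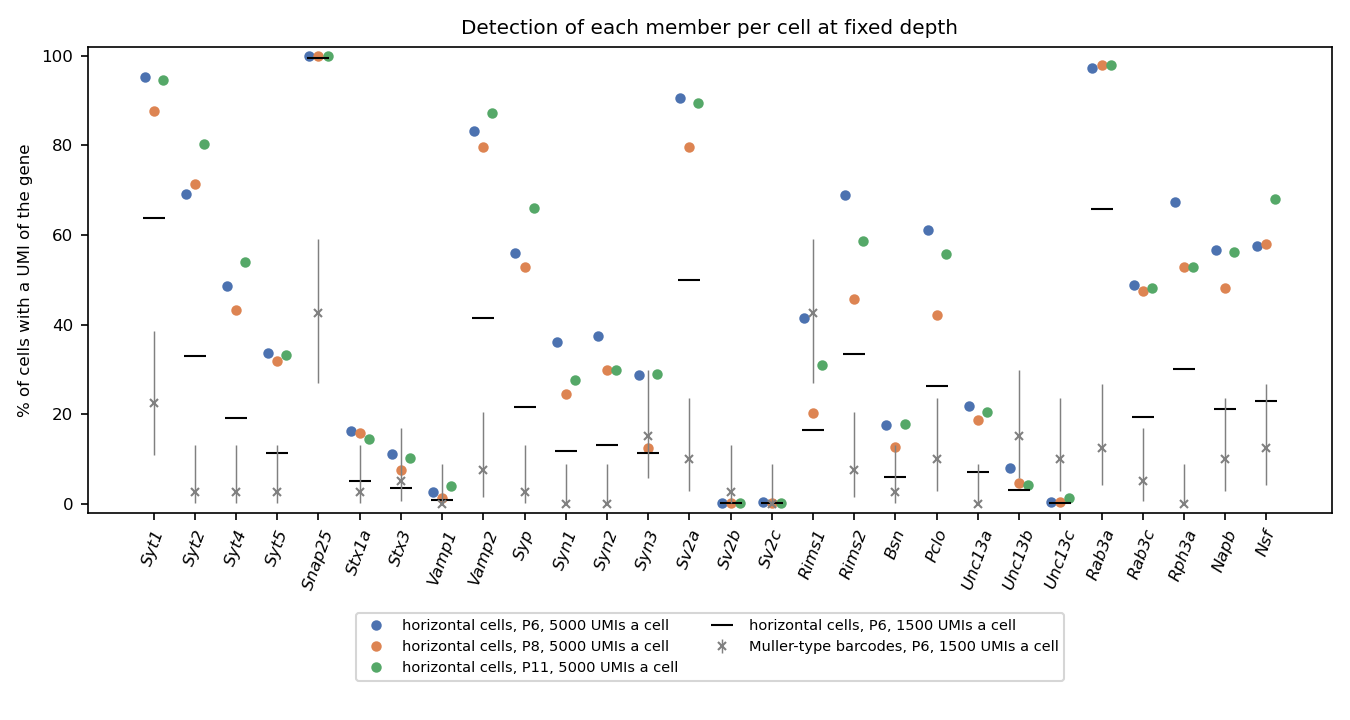
Percent of cells with at least 1 UMI of each member: horizontal cells thinned to 5000 UMIs at P6, P8 and P11 (coloured), and at P6 horizontal cells thinned to 1500 UMIs (bars) beside 40 Müller-type barcodes at the same depth (crosses, 95% Clopper-Pearson interval). Snap25 reaches 100% at each age, and Rims1 is the member whose Müller-type share, 42.5%, most exceeds the horizontal cell share.

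Cells with 1 paralogue were compared with all cells for the other. Of P6 cells with a Syt2 UMI 95.6% also held Syt1, against 95.32% of all cells, and the values were 87.98% against 87.72% at P8 and 94.78% against 94.57% at P11. Cells with Rims1 held Rims2 in 72.09% (70.31 to 73.81), 55.52% (51.46 to 59.52) and 64.63% (62.09 to 67.12), against 68.89%, 45.61% and 58.71% of all cells, which lie under these intervals in each library. Spearman's rho between paralogue pairs over cells lay between -0.05 and 0.12, too weak in sparse counts to be a finding.

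The same libraries held small numbers of barcodes of other retinal classes, which give a second reading of the paralogue choice. Barcodes with at least 3 rod markers (49, 43 and 43 of them) or at least 3 bipolar markers (39, 19 and 36), and fewer than 2 of the horizontal factors, are called rod-type and bipolar-type, and 2, 2 and 3 barcodes were in both sets. None of the members was used to choose them. They are rare barcodes in a sort for other cells, and still held horizontal cell factors at 2.712% to 6.834% of the horizontal cell level. Counts were summed per library and class and compared by edgeR's quasi-likelihood test with the library as block, so that 3 pairs of sums enter, 1 from each age. The size of the p-values is therefore no measure of spread between replicate libraries. For Stx3 in rod-type barcodes the edgeR adjusted p was 7.7e-77. It became 3.4e-13, 1.5e-32 and 1.9e-60 when P6, P8 or P11 was left out.

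Over all 28 members, rod-type barcodes were called higher than horizontal cells for 8 (Syt1, Stx3, Syp, Sv2b, Rims2, Pclo, Unc13b and Unc13c) and lower for 17, beside 11.8% higher and 20.7% lower among all 14698 genes tested. Bipolar-type barcodes were higher for 9 (Syt1, Stx3, Sv2b, Rims1, Rims2, Pclo, Unc13b, Unc13c and Nsf) and lower for 10, beside 9.77% and 14.3% of 14702 genes. Without TMM the log2 differences were higher by 0.49 and 0.36, so that Rims1, Bsn, Unc13a and Napb lost the call of lower in rod-type barcodes, Nsf became higher there, and Napb lost its call in bipolar-type barcodes. Under every setting tried, DESeq2 and each library left out included, 5 higher and 13 lower calls held for rod-type and 6 higher and 9 lower for bipolar-type barcodes. Those held in the higher direction were Syt1, Stx3, Sv2b, Pclo and Unc13b for rod-type, and Stx3, Sv2b, Rims1, Rims2, Unc13b and Unc13c for bipolar-type barcodes. Sv2b passed the expression filter of the test only with the counts of the other class, so its calls are not read as support. Leaving out P8 ended the rod-type calls of Syp, Bsn, Unc13a and Unc13c, leaving out P6 those of Rims1, Bsn and Napb, and leaving out P11 those of Rims1 and Rims2. For bipolar-type barcodes, leaving out P11 ended the calls of Syt1, Pclo and Nsf, P6 those of Napb and Nsf, and P8 those of Pclo and Nsf.

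Sv2b, nearly absent from horizontal cells, was at 495.7, 298.7 and 453.1 CPM in rod-type and 147.7, 157 and 254.4 CPM in bipolar-type barcodes. Each library holds 1 sum per class, and the counting intervals of either class and of horizontal cells did not overlap in any library. The horizontal cell sums of Sv2b held 26, 16 and 49 UMIs. The gene passed the expression filter of the test only with the counts of the other class, so no p-value is given for it. The log2 difference from horizontal cells was 9.72 for rod-type and 8.68 for bipolar-type barcodes, higher in 3 of 3 libraries each. Sv2a was the reverse, at 38.72, 61.49 and 72.49 CPM in rod-type barcodes, a log2 difference of -3.42 (edgeR adjusted p = 7.29e-28, lower in 3 of 3). Sv2b thus held 92.75%, 82.93% and 86.21% of SV2 UMIs in rod-type barcodes. In bipolar-type barcodes Sv2a was at 147.7, 196.3 and 138.8 CPM, a log2 difference of -1.83 from horizontal cells (edgeR adjusted p = 4.65e-12, lower in 3 of 3). There Sv2b held 48.78% (32.88 to 64.87), 44.44% (25.48 to 64.67) and 64.71% (52.17 to 75.92) of SV2 UMIs, so neither gene led beyond counting error at P6 and P8. As a percent of the rod-type level, Sv2b in horizontal cells was at 0.06373%, 0.08567% and 0.1048%, and the summed rod markers at 0.08039%, 0.03947% and 0.02892%.

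Syntaxins differed in the same way. Stx3 was at 511.2, 579.8 and 706.8 CPM in rod-type barcodes, 4.42 higher on the log2 scale than in horizontal cells (edgeR adjusted p = 7.71e-77, 3 of 3 libraries). In bipolar-type barcodes it was at 192.1, 235.5 and 260.2 CPM and 3.14 higher (edgeR adjusted p = 5.00e-26, 3 of 3). Stx1a had 1, 0 and 1 UMI in rod-type barcodes and 0 in all bipolar-type libraries. With a floor of 3 UMIs over the bipolar-type barcodes, Stx1a was at least 4.17-fold lower there (edgeR adjusted p = 7.45e-06).

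Among the Munc13 genes, Unc13b was at 418.2, 272.3 and 425.9 CPM in rod-type barcodes, with a log2 difference of 4.55 (edgeR adjusted p = 8.44e-68, higher in 3 of 3). In bipolar-type barcodes Unc13b was at 369.4, 157 and 422.1 CPM, with a log2 difference of 4.46 (edgeR adjusted p = 4.72e-54, higher in 3 of 3). Unc13c was at 273.3, 510.3 and 381.7 CPM in bipolar-type barcodes, with a log2 difference of 7.52 (edgeR adjusted p = 1.37e-137, 3 of 3). It was at 0, 105.4 and 45.31 CPM in rod-type barcodes. In Müller-type barcodes Unc13c was at 134.7, 203.7 and 854.9 CPM, the P8 value from 3 UMIs. Syt2 was at 38.72, 8.785 and 9.061 CPM in rod-type barcodes, from 5, 1 and 1 UMI. In bipolar-type barcodes Syt2 was at 14.77, 0 and 0 CPM, from 2, 0 and 0 UMIs, against 265.9, 260.3 and 341.7 CPM in horizontal cells. The log2 differences were -4.36 for rod-type and -6.18 for bipolar-type barcodes (edgeR adjusted p = 5.51e-28 and 3.90e-35, lower in 3 of 3 libraries each). Rph3a, Rab3a, Syn2 and Syt5 were lower in both classes as well.

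**Figure D5:**
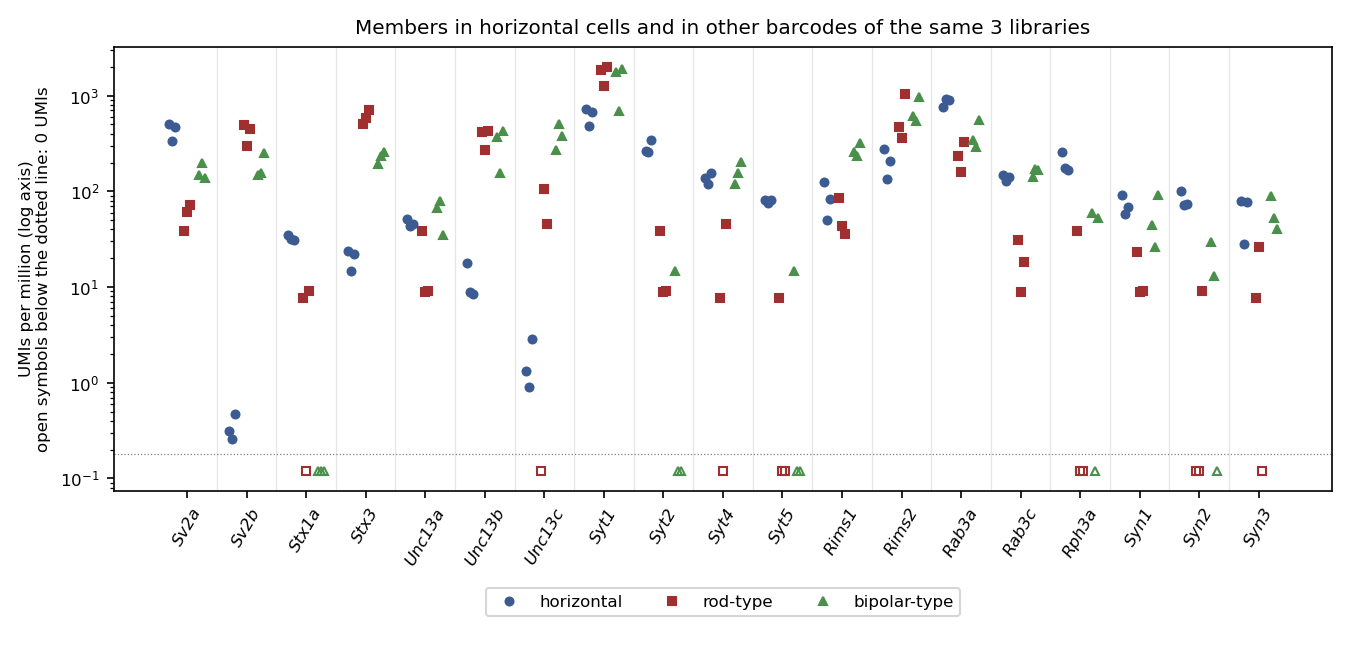
Level in CPM (log axis) of 19 members in horizontal cells (circles), rod-type (squares) and bipolar-type barcodes (triangles), 1 symbol per library in the order P6, P8, P11; open symbols under the dotted line stand for 0 UMIs. Sv2b, Stx3, Unc13b and Unc13c lie higher in the other classes, with Unc13c at 0 UMIs in rod-type barcodes of P6, and Sv2a, Stx1a, Syt2 and Rph3a lie lower.

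The rest of the pathway was read from lists of related genes. Of 56 other vesicle release genes, 32 reached 20 CPM at P6 or P11, of which 3 were at least 1.5-fold higher at P11 and 9 lower, with a median log2 ratio of -0.12, beside 7.35% higher and 12.3% lower among all genes. Of the same list, 1 of 31 was higher and 11 were lower at P8 than at P6, and 7 of 28 were higher and 1 lower at P11 than at P8. The shares over all genes were 7.97% higher and 21.7% lower for the first step, and 10.4% and 4.55% for the second. The farthest were Rab27b, a Rab of secretory vesicles, at 10.76, 18.7 and 37.07 CPM, and Ctbp2, whose locus also encodes the ribbon protein RIBEYE, at 37.71, 34.28 and 61.67 CPM. In the other direction were Syt6, a synaptotagmin, at 29.17, 3.327 and 1.755 CPM, and Doc2a, a further calcium sensor, at 22.06, 9.837 and 4.197 CPM. With TMM the counts were 5 higher and 4 lower. Among complexins, which clamp and promote SNARE zipping, Cplx1 was at 22.65, 8.765 and 4.459 CPM, Cplx2 at 48.81, 44.71 and 45.15, Cplx3 at 18.16, 21.35 and 16.28, and Cplx4 at 0.08505, 0.06398 and 0.08724. Of 24 vesicle endocytosis genes with 20 CPM, 2 were higher at P11 and 1 lower. These were Pacsin1, a membrane-bending partner of dynamin, at 519.7, 702.3 and 1173 CPM, Sh3gl2, which encodes endophilin A1, at 191.4, 195.4 and 291.7 CPM, and Eps15, a clathrin adaptor, at 57.12, 30.57 and 30.55 CPM. Of 17 transmitter loading genes, 1 was higher and 2 were lower: Atp6v1a, a proton pump subunit, at 367, 410.2 and 680.3 CPM, Slc17a6, the vesicular glutamate transporter VGLUT2, at 46.21, 22.62 and 12.55 CPM, and Atp6v1g2, a neuronal pump subunit, at 222.9, 148.5 and 143.9 CPM.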

How the data were processed

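Droplet 3' libraries (1 each at P6, P8 and P11) were counted by the authors with Cell Ranger 7.1.0 on mm10, per the submitters' processing notes. The deposited values are raw UMI counts per gene and barcode. For the annotation release and for intron reads, the entry is "not given in the sources used here". Members and gene lists were chosen with earlier results of these data known. Python 3.11.15 was used to sum the counts over horizontal cells (82305608, 62520239 and 103160766 UMIs) and to divide them by the library sum, as CPM. Genes that reached 20 CPM at either age and differed by 1.5-fold counted as apart. Levels have exact Poisson, ratios conditional binomial and shares Clopper-Pearson 95% intervals. UMIs are molecules, and the intervals cover counting error only. No doublet caller was run. Instead, cells holding markers of another type and the deepest 5% of cells were left out as alternatives. Spans and positions came from GENCODE vM21 on the same build, in which 32235 of 32285 features matched, and promoter windows from RefSeq, in which 22 of 28 members matched. Classes of barcodes were compared with edgeR 4.0.16 in R 4.3.3 (TMM, default expression filter, which all 28 members passed, Benjamini-Hochberg adjustment), with DESeq2 1.42.0 as an alternative. This test was added after the data were seen. Both procedures were tested on simulated data. The simulated ages held counting error alone and no spread between libraries. In the simulated classes, the changed genes all had higher levels than Stx1a, Stx3, Sv2b, Unc13b and Unc13c have in horizontal cells. The simulations therefore do not bear on spread between ages or on genes that low. Genes outside the members were named by a rule: the highest paralogue of a family, the complexin and Timp genes, and per list at most 2 genes each way that lay farthest past 1.5-fold between P6 and P11. A result that this rule would name is not reported here.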

Additional observations from a re-analysis of the deposited data

How the results depend on the processing

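No paired analysis was possible because each age has 1 library. The 7, 4 and 2 members apart at 1.5-fold (P8 over P6, P11 over P8 and P11 over P6) became 3, 2 and 1 with TMM and with median-of-ratios scaling, 3, 1 and 0 at 2-fold, and 3 and 1 in the first 2 comparisons at a minimum of 100 CPM. With no minimum they were 9, 8 and 7. P11 over P8 held 2 as a mean over cells or with cells thinned to 5000 UMIs. P11 over P6 held 1 with at most 5% mitochondrial UMIs, all 3 factors, no cells holding markers of another type, or thinned cells. The median over members (log2, P8 over P6) was -0.31, and -0.03 with TMM, 0.00 with median-of-ratios, -0.26 as a mean over cells, -0.51 with no minimum and -0.27 at 100 CPM. For P11 over P8 it was 0.36, and 0.28, 0.24 and, with no minimum, 0.39. For P11 over P6 it was -0.10, and 0.10 with both scalings and -0.02 at 100 CPM. The highest over the lowest summed level was 1.235, and 1.172 (TMM), 1.171 (median-of-ratios), 1.24 (5% mitochondrial), 1.239 (at least 10000 UMIs), 1.241 (without the deepest cells) and 1.228 (thinned). The median share of cells with a member UMI was 45.09%, 36.94% and 40.68% at 5000 UMIs, and 30.95%, 24.89% and 27.33% at 3000. Scalings and minimums act by construction; the cause of the other shifts was not tested. The 8 groups of 9 with a constant leader stayed at 8 under each cell choice and became 9 per exonic length. Of 690 ratios of single members under other settings, 652 kept their side of 1.5-fold, 28 lost it, 10 gained it and 0 of those apart changed sign. Most of the 690 belong to ratios that were not apart, and all 28 losses fell on the 7, 4 and 2 that were. Counts of members called between classes stayed within 1.5 times. With each library left out in turn, rod-type barcodes had 6 to 8 higher and 14 to 16 lower, and bipolar-type barcodes 6 to 8 higher and 9 to 11 lower. Depth limits Sv2b, Sv2c and Unc13c, with 16 to 292 UMIs a library.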

Other observations

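Rims1, a RIM scaffold gene of the active zone, was spread less evenly over the P8 horizontal cells than over those of P6 and P11, a pattern picked out after its values were seen. With each cell thinned to 5000 UMIs, its mean was 0.598, 0.268 and 0.403 UMIs a cell (P6, P8, P11). Variance divided by the mean was 1.38, 2.77 and 1.25 in the same order. The highest P8 cell held 24 Rims1 UMIs, which was 2.98% of all Rims1 UMIs there, and the next held 21. Without the highest cell of each library the variance over the mean was 1.285, 2.132 and 1.185 (P6, P8, P11). Among the other members at P8, Snap25 had the highest value, 2.62, followed by Unc13c at 1.92. Without cells that hold at least 2 rod, bipolar, Müller glia, microglia or endothelial markers the Rims1 value was 1.379, 2.779 and 1.25, and the P8 cell with 24 UMIs was among those kept. With 1 library per age there is no test of this spread between ages, and the part of free RNA in these UMIs was not tested.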
